A study of Mus musculus with 12 samples.

Results

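The nuclear lamina and the complex that couples it to the cytoskeleton were described by 10 genes, chosen by name with earlier results of these data known. They are the lamin genes Lmna, Lmnb1 and Lmnb2, the genes Lbr, Emd and Tmpo of proteins of the inner nuclear membrane, and the genes Sun1, Sun2, Syne1 and Syne2 of the LINC complex. All 10 were measured, out of 19937 genes that a probe set with 1 gene symbol named on the array. RNA of splenic lymphocytes of C57Bl/6 x FVB mice was hybridised to 12 Affymetrix mouse gene arrays, 3 for each labelled group. The labels give B cells activated in culture for 4 days with antibody to CD40 and IL-4, resting (day 0) CD43-negative B cells, T cells activated for 4 days with antibodies to CD3 and CD28 and IL-2, and resting (day 0) B220-negative T cells. The labels call both resting cell types mature, and all 4 groups share the strain. Values are log2 levels made by the authors with RMA, which brings the arrays to 1 distribution, so a level is relative to the other genes on the array. Levels of different genes are not compared, since probes differ in response.

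The lineage markers ran against the labels in all 4 groups, so each array is named by its label and each direction is one between labelled groups. The summed level of 11 measured T cell markers was 13.42 to 13.56 log2 in the arrays with the activated B label and 13.82 to 13.95 in those with the resting B label, against 9.13 to 10.05 in those with the activated T label and 8.85 to 9.31 in those with the resting T label. For 11 measured B cell markers it was 8.48 to 8.76 and 10.62 to 12.01 log2 in the arrays with the activated and resting B labels, against 14.70 to 14.85 and 13.05 to 13.38 in those with the activated and resting T labels. Of the B cell markers, 7 were at or below the background level in the arrays with the activated B label, among them Cd79a and Ms4a1. In those with the resting B label, all 11 B cell and all 11 T cell markers were above it. With the activated and resting T labels all 11 B cell markers were above it, as were 10 and 8 T cell markers. The share of each cell type in a group was not tested. The background level, 5.21 log2, is the 95th percentile of 1027 olfactory receptor genes. For 10 markers of dividing cells the summed level was 13.42 to 13.48 log2 in the arrays with the activated B label and 9.38 to 9.85 in those with the resting B label, against 9.20 to 9.70 in those with the activated T label and 12.89 to 12.98 in those with the resting T label. All 10 of the dividing-cell markers were above background in the arrays with the activated B and resting T labels, and the mitotic genes Bub1 and Tpx2 were at or below it in both other groups. Whether replicate arrays stem from different animals is not given in the sources used here, so the p-values cover only how far these samples spread, which may be technical. A change in the number of cells of a type and a change in RNA per cell cannot be told apart in such samples.

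The lamina is a meshwork of intermediate filament proteins on the inner face of the nuclear envelope. It is built from the B-type lamins, which stay anchored to the membrane by a lipid group, and from lamin A and lamin C, both made from Lmna, which are known to be scarce in resting lymphocytes. Proteins of the inner nuclear membrane bind the lamins and tether chromatin to the nuclear edge, and SUN proteins hold nesprins of the outer membrane, which reach the cytoskeleton. The lamina is taken apart when the nucleus divides and rebuilt afterwards.

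Most of the 10 genes differed between the labelled states. Read by the labels they changed in opposite directions in the labelled B and T cells, and with the labelled T comparison turned round, as the dividing-cell markers run, they changed in the same direction in both. In the arrays with the activated B label, 5 genes were higher than in those with the resting B label (Lmnb1, Tmpo, Lmnb2, Emd and Lbr) and 3 were lower (Sun2, Syne1 and Syne2), at an adjusted p under 0.05 from limma over all genes. These 8 calls stand beside 36.5% of all genes called in this comparison, 19.7% higher and 16.7% lower. For 9 of the 10 genes, all but Lmna, the arrays of both groups did not overlap, as for 46.6% of all genes. Between the arrays with the activated and resting T labels, 4 genes were higher (Syne1, Sun1, Sun2 and Syne2) and 5 lower (Lmnb1, Tmpo, Emd, Lmnb2 and Lbr), beside 15.9% and 17.8% of all genes (33.7% called in all). The arrays of these groups did not overlap for 8 genes, all but Lmna and Syne2, beside 42.3% of all genes. The interaction, the labelled B change minus the labelled T change, was positive for 5 genes, negative for 4 and not called for Lmna, where 21.9% of all genes were called positive and 20.9% negative (42.7% in all). The median log2 fold change of the 10 genes was 0.25 in the labelled B cells, -0.19 in the labelled T cells and 0.44 for the interaction, beside -0.02, 0.02 and -0.03 over all genes, and each median lies between genes that moved in opposite directions.

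The direction of the labelled T comparison is in doubt, since the dividing-cell markers were low in the arrays with the activated T label and high in those with the resting T label. The change in the labelled B cells was therefore also set against the T comparison with its sign turned, the resting minus the activated T label. For Lmnb1 the changes were then 2.01 in the labelled B cells and 1.88 for the turned T comparison, a difference of 0.13 (95% interval -0.18 to 0.43, adjusted p = 0.7 from limma). Emd had 0.57 on both sides, with a difference of 0.00 (95% interval -0.32 to 0.33), and Tmpo 0.89 and 0.69. Sun2 had -0.78 and -0.43, and Syne1 -0.75 and -0.61. Of the 10 differences, 0 were called and 2 had an unadjusted p under 0.05 (limma), where 14.7% of all genes were called, 8.02% positive and 6.65% negative. These 2 were Lmnb2 (0.35, 95% interval 0.05 to 0.65, adjusted p = 0.121) and Sun2 (-0.35, 95% interval -0.64 to -0.07, adjusted p = 0.102). Each interaction given from here on follows the labels. It would be replaced by such a difference if the activated and resting T labels were exchanged with each other. The lineage markers also run against the cell type labels, and exchanging those would turn the sign of each such difference.

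**Figure D1:**
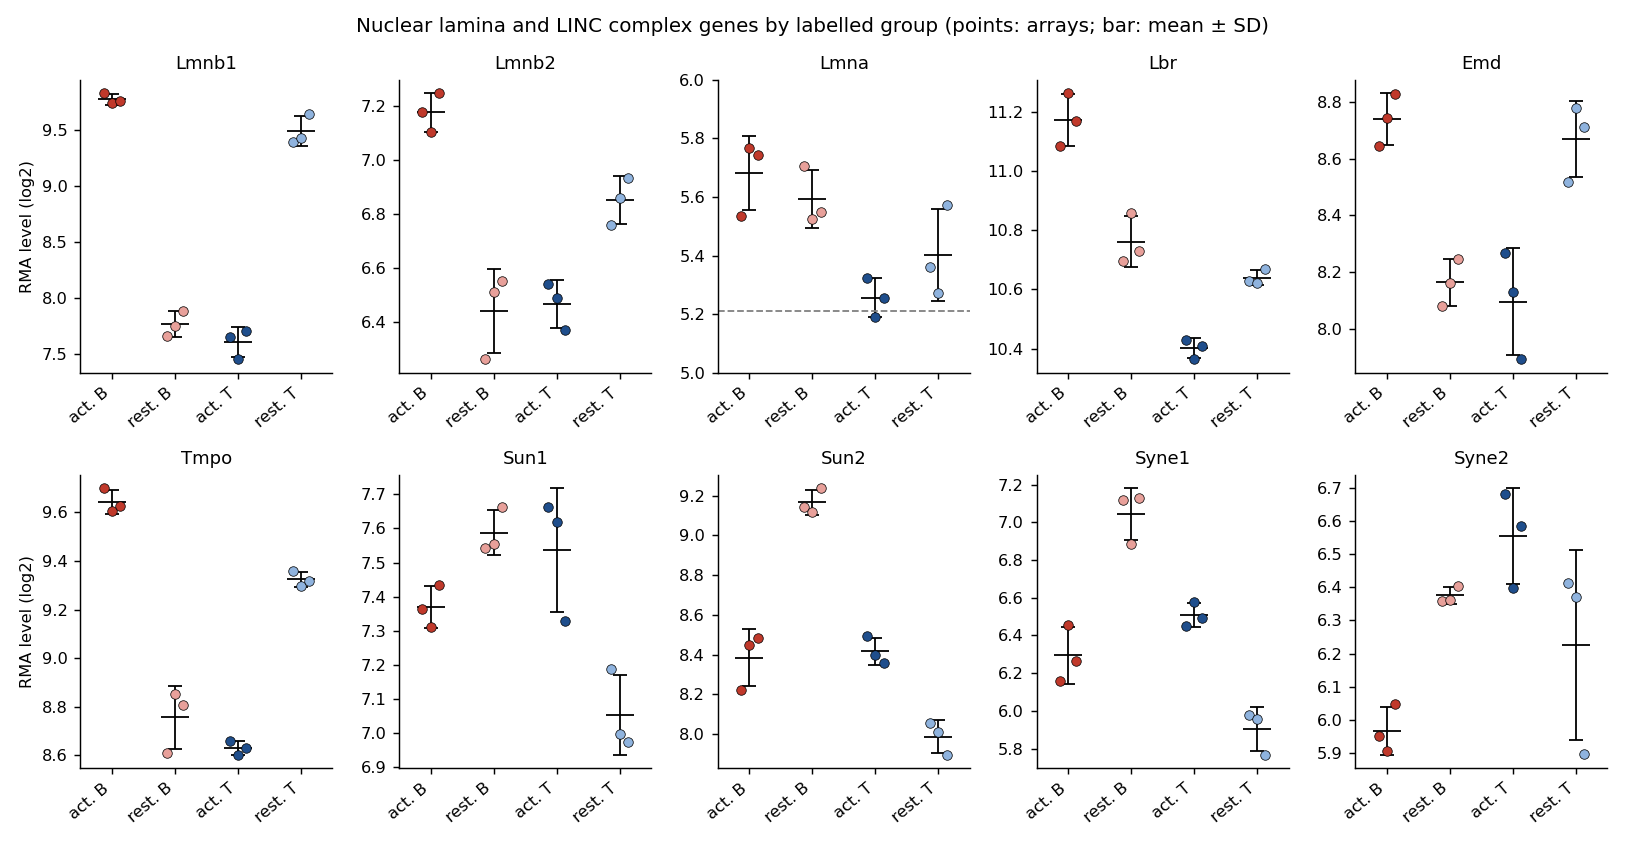
RMA levels (log2, y axis, a separate range for each gene) of the 10 genes by label, which is activated B, resting B, activated T or resting T (x axis), with the 3 arrays of a group as points and their mean and SD as bars, and a dashed line at the background level of 5.21 log2 for Lmna. Lmnb1, Emd and Tmpo are high in the arrays with the activated B and resting T labels, and Syne1 and Sun2 are highest in those with the resting B label.

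Lmnb1, the gene of lamin B1, had the largest log2 fold change of the 10 genes in both labelled activation comparisons. It was at 9.83, 9.74 and 9.76 log2 in the arrays with the activated B label, and at 7.66, 7.75 and 7.89 log2 in those with the resting B label. In the arrays with the activated T label it was at 7.66, 7.45 and 7.71 log2, and in those with the resting T label at 9.39, 9.43 and 9.64 log2. The arrays with the activated B and resting T labels lay between 9.39 and 9.83 log2, and the other 6 between 7.45 and 7.89. The log2 fold change was 2.01 in the labelled B cells (standard error 0.10, adjusted p = 1.03e-10 from limma), which is 4.02-fold, and -1.88 in the labelled T cells (standard error 0.10, adjusted p = 2.46e-10). The interaction was 3.89 (standard error 0.14, adjusted p = 1.07e-12 from limma) and held 97.7% of the sum of squares of Lmnb1 between the 12 arrays, while 0.101% went with the labelled activation. With the labelled T comparison turned these shares change places, so that 0.101% is left to a difference between the labelled cell types in the change.

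Lmnb2, which encodes the second B-type lamin, was high in the same 2 groups as Lmnb1, with smaller differences. It was at 7.18, 7.10 and 7.25 log2 in the arrays with the activated B label, and at 6.26, 6.51 and 6.55 log2 in those with the resting B label. Levels of 6.54, 6.49 and 6.37 log2 were found with the activated T label, and of 6.76, 6.86 and 6.94 log2 with the resting T label. No array of the first group overlapped with the second, and none of the third with the fourth. The log2 fold changes were 0.74 in the labelled B cells and -0.39 in the labelled T cells (standard error 0.10 each, adjusted p = 1.23e-05 and 0.00533 from limma). The interaction of 1.12 for Lmnb2 stood beside that of 3.89 for Lmnb1, and a test of the difference between the genes was not made.

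Lmna, the gene of lamins A and C, stayed near the background in all groups. It was at 5.54, 5.77 and 5.74 log2 in the arrays with the activated B label, at 5.71, 5.52 and 5.55 in those with the resting B label, at 5.32, 5.19 and 5.25 in those with the activated T label and at 5.36, 5.27 and 5.57 in those with the resting T label. With the background level at 5.21 log2, 1 array labelled activated T lay under it, and the highest array of all was at 5.77. Neither activation comparison was called, with log2 fold changes of 0.09 in the labelled B cells (95% interval -0.13 to 0.31, adjusted p = 0.578 from limma) and -0.15 in the labelled T cells (95% interval -0.36 to 0.07, adjusted p = 0.331). Lmna was higher in the arrays with the activated B label than in those with the activated T label (log2 fold change 0.43, standard error 0.10, adjusted p = 0.00272 from limma), and 65.2% of its sum of squares went with the labelled cell type. With each array centred on its median over all probe sets the interaction of Lmna was called at 0.45 (adjusted p = 0.0128 from limma), against 0.23 (adjusted p = 0.226) without centring. The summed level of 12 myeloid markers was 8.53 to 8.73 log2 in the arrays with the activated B label and 11.90 to 11.99 in those with the activated T label. It was 10.79 to 11.44 log2 in the arrays with the resting B label and 10.87 to 11.36 in those with the resting T label. Cybb alone was at 11.24 and 10.37 log2 with the activated and resting T labels, and at 8.41 with the resting B label. Of the 12 markers, only Cybb and Mpeg1 had a higher mean with the activated T than with the resting B label. Between the resting labels, only Cybb, Mpeg1 and Cd68 were higher in the mean with the T label. For 7 endothelial and stromal markers the summed level was 8.92 to 9.18 and 10.13 to 10.23 log2 in the arrays with the activated B and activated T labels. Cdh5, Kdr and Pdgfrb were at or below background in both. It was 9.57 to 9.79 and 8.50 to 8.68 log2 in those with the resting B and resting T labels. Pecam1 was the highest of the 7 in every group. It was at 8.21 and 9.13 log2 with the activated and resting B labels, and at 9.79 and 6.94 with the activated and resting T labels. Of the others, Fn1 had the widest range of group means, from 4.69 (activated B label) to 5.71 log2 (resting B label). Whether myeloid, endothelial or stromal cells had a part in the level of Lmna was not tested.

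Tmpo, which encodes the LAP2 proteins that bind lamins and chromatin, was high in the same 2 groups as the B-type lamins. It was at 9.70, 9.60 and 9.63 log2 in the arrays with the activated B label, and at 8.61, 8.85 and 8.81 log2 in those with the resting B label. The 3 arrays with the activated T label had 8.66, 8.60 and 8.63 log2, and those with the resting T label 9.36, 9.30 and 9.32 log2. The arrays with the activated B label lay above all others, and those with the resting T label above both remaining groups. The log2 fold changes were 0.89 and -0.69 in the labelled B and T cells (standard error 0.09 each, adjusted p = 3.85e-07 and 7.41e-06 from limma), and the interaction was 1.58 (standard error 0.12, adjusted p = 1.46e-08).

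Emd, the gene of emerin, a LEM-domain protein of the inner nuclear membrane, was at 8.64, 8.74 and 8.83 log2 in the arrays with the activated B label, and at 8.08, 8.16 and 8.25 log2 in those with the resting B label. Under the activated T label it was at 8.27, 8.13 and 7.89 log2, and under the resting T label at 8.52, 8.78 and 8.71 log2. The 2 higher groups overlapped with each other, as did the 2 lower ones. The log2 fold changes of Emd were 0.57 in the labelled B cells and -0.57 in the labelled T cells (standard error 0.11 each, adjusted p = 0.000394 and 0.000455 from limma), and the interaction was 1.14 (standard error 0.15, adjusted p = 8.38e-06).

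Lbr, the lamin B receptor, which joins a chromatin-binding domain to a sterol reductase domain, had another order of groups. It was at 11.09, 11.26 and 11.17 log2 in the arrays with the activated B label, and at 10.70, 10.86 and 10.73 log2 in those with the resting B label. For the labelled T cells it was at 10.43, 10.36 and 10.41 log2 in the activated and at 10.63, 10.62 and 10.67 log2 in the resting arrays. The arrays with the activated B label lay above all others and those with the activated T label below all others. The log2 fold change in the labelled B cells was 0.41 (standard error 0.09, adjusted p = 0.000979 from limma). In the labelled T cells it was -0.24 (standard error 0.09, adjusted p = 0.0415), a call lost with the replicate number as a block (adjusted p = 0.0663), with quantile normalization (adjusted p = 0.222), with only the arrays labelled T in the fit (adjusted p = 0.0742), and without the array labelled resting B replicate 3, activated B replicate 3 or any 1 of the 6 labelled T (adjusted p up to 0.122). Of the sum of squares of Lbr, 61.6% went with the labelled cell type and 32.6% with the interaction. The summed T cell markers given above were higher in both groups labelled B than in both labelled T, and their part in the level of Lbr was not tested.

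The SUN genes, whose products span the inner nuclear membrane, ran the other way. Sun2 was at 8.22, 8.45 and 8.49 log2 in the arrays with the activated B label, and at 9.15, 9.12 and 9.24 log2 in those with the resting B label. In the arrays with the activated T label it was at 8.49, 8.40 and 8.36 log2, and in those with the resting T label at 8.06, 8.01 and 7.90 log2. The arrays with the resting B label lay above all others, those with the resting T label lay below all others, and those with the activated B and activated T labels overlapped. The log2 fold change of Sun2 was -0.78 in the labelled B cells and 0.43 in the labelled T cells (standard error 0.09 each, adjusted p = 4.08e-06 and 0.00169 from limma), and the interaction was -1.21 (standard error 0.13, adjusted p = 9.17e-07).

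Sun1 was at 7.37, 7.31 and 7.43 log2 in the arrays with the activated B label, and at 7.54, 7.56 and 7.66 log2 in those with the resting B label. Levels of 7.66, 7.62 and 7.33 log2 were found with the activated T label, and of 7.19, 7.00 and 6.98 log2 with the resting T label. The arrays with the resting T label lay below all others, and 1 array labelled activated T lay among those with the activated B label. In the labelled B cells the log2 fold change of -0.22 (95% interval -0.43 to 0.0011) was not called (adjusted p = 0.12 from limma), although it was called with quantile normalization (adjusted p = 0.016) and with each array centred on its 75th percentile over the genes (adjusted p = 0.0189). In the labelled T cells it was 0.48 (standard error 0.10, adjusted p = 0.00124 from limma), and the interaction was -0.70 (standard error 0.15, adjusted p = 0.000715).

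**Figure D2:**
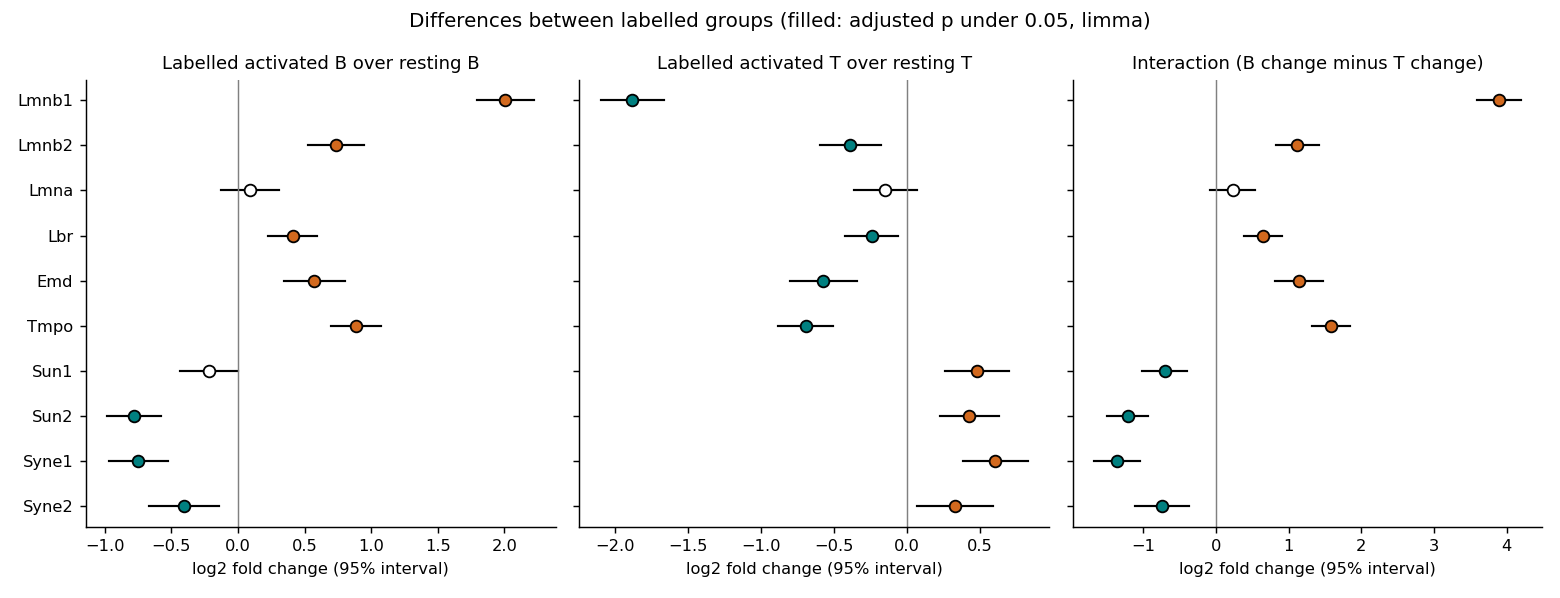
Log2 fold changes (x axis) of the 10 genes (y axis) in the arrays labelled activated over resting B, in those labelled activated over resting T, and for the interaction, with 95% intervals as lines and filled points where the adjusted p from limma is under 0.05. Lmnb1 has a log2 fold change of 2.01 in the labelled B cells and -1.88 in the labelled T cells, and the 4 LINC genes lie on the opposite side of 0 from Lmnb1 in every panel. With the sign of the T comparison turned, Lmnb1 would stand at 1.88 beside 2.01.

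The nesprin genes Syne1 and Syne2, whose products sit in the outer nuclear membrane and bind actin, were read by several probe sets each. Syne1 was at 6.16, 6.46 and 6.27 log2 in the arrays with the activated B label, and at 7.12, 6.89 and 7.13 log2 in those with the resting B label, by the probe set with the highest mean, 10361509. The 3 arrays with the activated T label had 6.45, 6.58 and 6.49 log2, and those with the resting T label 5.98, 5.96 and 5.77 log2. As for Sun2, the arrays with the resting B label lay above and those with the resting T label below all others. The log2 fold change was -0.75 in the labelled B cells and 0.61 in the labelled T cells (standard error 0.10 each, adjusted p = 1.91e-05 and 0.00018 from limma), and the interaction was -1.36 (standard error 0.15, adjusted p = 7.78e-07). The other probe set of Syne1, 10361381, gave log2 fold changes of 0.06 (95% interval -0.20 to 0.32) and 0.15 (95% interval -0.11 to 0.41), neither of them called (adjusted p = 0.771 and 0.417 from limma over all probe sets). Its group means lay between 5.55 and 5.70 log2, near the background, and its interaction was -0.09 (adjusted p = 0.733), so the change of Syne1 rests on 1 of 2 probe sets. With the mean of both probe sets, Syne1 was not called between the activated T and resting B labels (-0.24, adjusted p = 0.139) or the activated B and resting T labels (0.27, adjusted p = 0.072).

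Syne2 was at 5.95, 5.90 and 6.05 log2 in the arrays with the activated B label, and at 6.36, 6.36 and 6.41 log2 in those with the resting B label. Under the activated T label it was at 6.68, 6.40 and 6.59 log2, and under the resting T label at 6.41, 6.37 and 5.90 log2. The arrays with the activated B label lay below those with the resting B label, while in the labelled T cells replicate 6 of the resting group stood apart at 5.90 and the other arrays overlapped. The log2 fold change in the labelled B cells was -0.41 (standard error 0.12, adjusted p = 0.0144 from limma), a call lost without activated B replicate 2 (adjusted p = 0.0528) and with median centring over all probe sets (adjusted p = 0.0882). In the labelled T cells it was 0.33 (standard error 0.12, adjusted p = 0.0499), which fell to 0.16 without resting T replicate 6 (adjusted p = 0.261). That call was lost in 17 of 25 settings. Among them were the replicate block (adjusted p = 0.0502), median centring over all probe sets (0.221) or over the genes (0.077), centring on the 75th percentile (0.0674), array weights (0.141), the mean of its probe sets (0.124), its probe set tested among all probe sets (0.0519) and a fit of only the arrays labelled T (0.106). It was lost too in the fits without any 1 of the arrays labelled B (adjusted p up to 0.0611), without activated T replicate 4 (0.174) or without activated T replicate 6 (0.116). All 4 probe sets of Syne2 were lower in the mean in the arrays with the activated B label than in those with the resting B label, with log2 fold changes from -0.41 to -0.34, of which 3 were called over all probe sets. None of the 4 was called in the labelled T cells in that fit, with log2 fold changes of 0.10 to 0.41. The interaction of Syne2 was -0.74 (standard error 0.17, adjusted p = 0.00212 from limma). With every probe set tested on its own it was called for 3 of the 4, and not for 10396606 (-0.49, adjusted p = 0.0555).

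**Figure D3:**
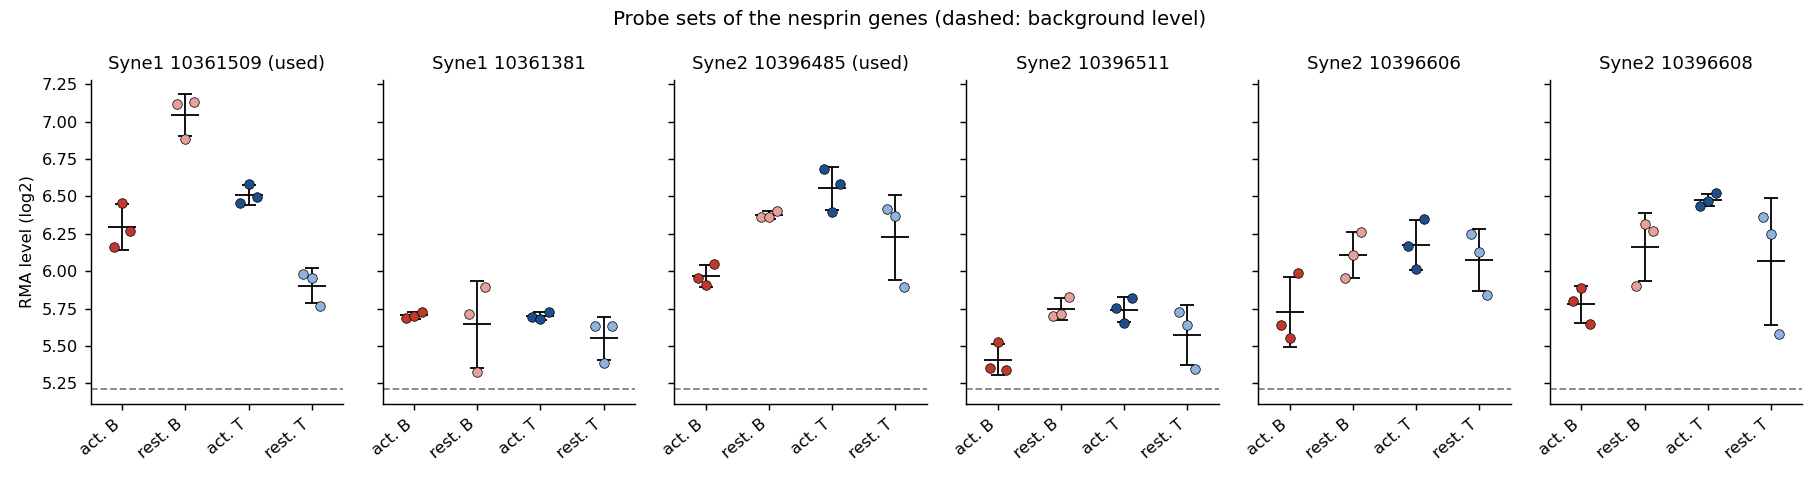
RMA levels (log2, y axis) of the 2 probe sets of Syne1 and the 4 of Syne2 in the arrays of the labelled groups (x axis), with the arrays as points, the mean and SD as bars and a dashed line at the background level of 5.21 log2. The group means of Syne1 probe set 10361381 lie between 5.55 and 5.70 log2, while those of probe set 10361509 lie between 5.90 and 7.04.

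Promoter sequence was examined for Tmpo and Sun2, 2 of the genes with opposite changes, in windows of 250 bases before to 50 bases after a start site (RefSeq, GRCm38.p6, read in the direction of transcription). They are shown because their levels differ in opposite directions from each other between the labelled states, and capitals mark matches to CCAAT (the NF-Y box), GGGCGG (the Sp1 box), TTTGAA (the core of the cell cycle homology region) and the E2F forms TTTCCCGC and TTTGGCGC, on either strand.
Tmpo, chr10:91171570-91171869, minus strand: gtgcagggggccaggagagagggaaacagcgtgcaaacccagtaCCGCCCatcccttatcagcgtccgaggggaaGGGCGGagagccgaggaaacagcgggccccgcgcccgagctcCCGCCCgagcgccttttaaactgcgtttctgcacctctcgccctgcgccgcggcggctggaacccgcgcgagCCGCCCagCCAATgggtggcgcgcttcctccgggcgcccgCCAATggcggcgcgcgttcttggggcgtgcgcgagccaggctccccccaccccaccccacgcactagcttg
Sun2, chr15:79742487-79742786, minus strand: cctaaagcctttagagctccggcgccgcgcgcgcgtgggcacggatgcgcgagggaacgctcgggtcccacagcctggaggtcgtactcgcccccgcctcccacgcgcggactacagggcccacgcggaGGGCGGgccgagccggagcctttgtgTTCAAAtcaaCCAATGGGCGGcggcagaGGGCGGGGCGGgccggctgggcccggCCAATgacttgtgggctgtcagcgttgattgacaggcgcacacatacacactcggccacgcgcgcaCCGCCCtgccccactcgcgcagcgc
The Tmpo window held CCAAT at 53 and 21 bases before the start and GGGCGG at 4 places. The Sun2 window held CCAAT at 85 and 41 bases before the start, GGGCGG at 5 places and TTTGAA on the other strand at 95 bases. None of the marked matches was an E2F form in these windows, while the second Tmpo window, further along the gene, held TTTCCCGC at 195 bases and TTTGAA at 28 bases before its start. Over 15 windows of 9 of the 10 genes, all but Lmnb1, CCAAT was in 7, TTTGAA in 3, GGGCGG in 9, TTTCCCGC in 1 and TTTGGCGC in 0, and over 32851 windows of all genes these motifs were in 37.4%, 17.9%, 35.7%, 1.07% and 0.514%. Windows of Lmnb1 were not examined, so these counts leave out the gene with the largest change, while the windows of all genes were not limited in this way. A match is a description of the letters and no site of binding.

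Between the labelled cell types the 10 genes split differently under the resting and the activated labels. Each of these pairs also differed in the dividing-cell markers. Their summed level was 9.38 to 9.85 log2 with the resting B label and 12.89 to 12.98 with the resting T label. It was 13.42 to 13.48 log2 with the activated B label and 9.20 to 9.70 with the activated T label. The part of dividing cells in the differences below was not tested. In the arrays with the resting B label, 3 genes were higher than in those with the resting T label (Sun2, Syne1 and Sun1, beside 16.1% of all genes) and 4 were lower (Lmnb1, Tmpo, Emd and Lmnb2, beside 19.0%, with 35.1% called in all). The arrays did not overlap for 8 genes, these 7 and Lbr, beside 42.6% of all genes. Sun2 differed by 1.18 log2 (standard error 0.09, adjusted p = 2.93e-08 from limma) and Syne1 by 1.14 (standard error 0.10, adjusted p = 1.45e-07), and Lmnb1 by -1.72 (standard error 0.10, adjusted p = 6.06e-10). In the arrays with the activated B label, 6 genes were higher than in those with the activated T label (Lmnb1, Tmpo, Lbr, Lmnb2, Emd and Lmna, beside 21.8% of all genes) and 1, Syne2, was lower (beside 18.9%, with 40.7% called in all). These 7 were also the genes whose arrays did not overlap, beside 51.1% of all genes. Lmnb1 differed by 2.17 log2 (standard error 0.10, adjusted p = 2.15e-11 from limma), Tmpo by 1.01 (standard error 0.09, adjusted p = 5.31e-08), Lbr by 0.77 (standard error 0.09, adjusted p = 1.11e-06) and Syne2 by -0.59 (standard error 0.12, adjusted p = 0.000828). For Sun2 the difference was -0.03 log2 (95% interval -0.23 to 0.17, adjusted p = 0.828 from limma). Sun1 (-0.17) and Syne1 (-0.21) were not called between the labelled activated groups (adjusted p = 0.227 and 0.121 from limma), and Sun1 was called without activated T replicate 6 (-0.27, adjusted p = 0.0477) and Syne1 without activated B replicate 2 (-0.30, adjusted p = 0.0497).

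Between the arrays with the activated T and resting B labels, whose summed dividing-cell markers were at most 9.85 log2, none of the 10 genes was higher (0 also at an unadjusted p under 0.05, beside 8.82% of all genes) and 4 were lower (beside 9.68%, with 18.5% called in all). For the same 4 the arrays did not overlap, beside 31.3% of all genes. They were Sun2 (-0.75, adjusted p = 1.32e-05 from limma), Syne1 (-0.53, adjusted p = 0.00115), Lbr (-0.36, adjusted p = 0.00567) and Lmna (-0.34, adjusted p = 0.0285). The call of Lmna was lost without resting B replicate 1 (adjusted p = 0.11) or 3 (0.051) and without activated T replicate 5 (0.109) or 6 (0.0679). Lmnb1, Lmnb2, Emd and Tmpo had log2 fold changes of -0.16, 0.03, -0.07 and -0.12 there, with 95% intervals that all held 0. Between the arrays with the activated B and resting T labels, whose summed dividing-cell markers were at least 12.89 log2, 6 of the 10 genes were higher (beside 13.0% of all genes) and none was lower (0 also at an unadjusted p under 0.05, beside 9.93%, with 23.0% called in all). The arrays did not overlap for 7 genes, these and Lmnb1, beside 35.2% of all genes. The 6 higher genes were Lbr (0.53, adjusted p = 0.000155 from limma), Sun2 (0.40, adjusted p = 0.00487), Syne1 (0.39, adjusted p = 0.0107), Tmpo (0.32, adjusted p = 0.0128), Lmnb2 (0.33, adjusted p = 0.0237) and Sun1 (0.32, adjusted p = 0.0346). Lbr and Sun2 were called whichever array was left out. Without activated B replicate 1, Tmpo (adjusted p = 0.055), Lmnb2 (0.063) and Sun1 (0.0796) were not called, and each of Lmnb2, Sun1 and Syne1 was also lost without others of these 6 arrays, with adjusted p-values up to 0.101, 0.123 and 0.0687. Lmnb2 was lost without activated B replicate 3 or resting T replicates 4 or 5, Sun1 without activated B replicates 2 or 3 or resting T replicates 5 or 6, and Syne1 without activated B replicate 2 or resting T replicate 6. Lmnb1 had a log2 fold change of 0.29 (adjusted p = 0.0527 from limma) and Lmna 0.28 (adjusted p = 0.0623), and each was called in 8 of 24 settings. Lmnb1 was called with median centring (adjusted p = 0.0353), array weights (0.0239), the intensity trend and robust settings (0.0262) and both filters on dim genes (0.0299 and 0.0316), and without resting T replicate 6 (0.0212), resting B replicate 1 (0.0488) or activated T replicate 5 (0.0483). Lmna was called with median centring over all probe sets (adjusted p = 0.0276) or over the genes (0.0489), quantile normalization (0.0283), array weights (0.0191) and both filters (0.0359 and 0.0379), and without activated B replicate 1 (0.0357) or resting T replicate 6 (0.0194). Syne2, at -0.26 (adjusted p = 0.164), was called without resting T replicate 6 (-0.42, adjusted p = 0.0064).

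The order of the 4 groups differed between genes. Lmnb1, Emd and Tmpo were highest in the arrays with the activated B label, then in those with the resting T label, resting B and activated T, and for each the step between the second and the third group was called. The first step was called for Tmpo (adjusted p = 0.0128 from limma) and not for Lmnb1 (0.0527) or Emd (0.752), and the last was called for none of them (0.354, 0.78 and 0.42 for Lmnb1, Emd and Tmpo). Lmnb2 had the same 2 groups on top, and its lower groups, labelled activated T and resting B, differed by 0.03 log2 (adjusted p = 0.915 from limma). Sun1, Sun2 and Syne1 were highest in the arrays with the resting B label, then in those with the activated T label, activated B and resting T, with the middle step not called for any of them (adjusted p = 0.227, 0.828 and 0.121). The first step of Sun1 was not called either (adjusted p = 0.832). No neighbouring groups of Lmna or Syne2 differed by the test, and for Lbr the middle step, between the arrays with the resting B and resting T labels, was not called (adjusted p = 0.334) although their arrays did not overlap.

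Other genes of the nuclear envelope moved in both directions as well. The counts of each list below stand beside the shares of all genes, which were 19.7% higher and 16.7% lower for the B labels (36.5% in all), 15.9% and 17.8% for the T labels (33.7%), and 21.9% positive and 20.9% negative for the interaction (42.7%). Of 16 genes of the inner membrane and of lamina partners, 5 were higher and 6 lower in the arrays with the activated B label than in those with the resting B label, 6 were higher and 3 lower in those with the activated T label than in those with the resting T label, and the interaction was positive for 4 and negative for 7. The median interaction of this list was 0.00, beside -0.03 over all genes. With the labelled T comparison turned, 3 of the 16 differed positively and 0 negatively (4 at an unadjusted p under 0.05 from limma). Over all genes, 8.02% were called positive and 6.65% negative in that turned comparison (14.7% in all). Nemp1, an inner membrane protein, had the largest interaction of the list at 2.43 (adjusted p = 6.27e-09 from limma), with a mean of 8.72 ± 0.10 log2 (SD, n = 3) in the arrays with the activated B label and 7.11 ± 0.04 in those with the resting B label. Banf1, which bridges DNA and LEM-domain proteins, followed at 2.01 (adjusted p = 2.26e-09) and Ankle1, a LEM-domain nuclease, at 1.44 (adjusted p = 1.28e-06). The LEM-domain genes Lemd3 (-1.14) and Lemd2 (-0.59) and the torsin cofactor gene Tor1aip1 (-0.69) had negative interactions (limma, adjusted p = 1.37e-05, 0.00091 and 0.00266, in that order). These 3, out of 7 with a negative interaction, were named after their values were seen and are not the 3 most negative.

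Of 11 paralogues and cytoskeletal partners of the LINC complex, 1 was higher and 3 were lower in the arrays with the activated B label than in those with the resting B label, and 4 were higher and 1 lower in those with the activated T label than in those with the resting T label. The 4 of 11 called for the B labels are near the 36.5% of all genes called there. Macf1, a large linker of actin and microtubules, was at 9.14 ± 0.07 log2 (SD, n = 3) in the arrays with the activated B label and 10.68 ± 0.05 in those with the resting B label, and at 10.96 ± 0.06 in those with the activated T label and 9.14 ± 0.25 in those with the resting T label (interaction -3.36, adjusted p = 1.93e-11 from limma). Fhod1, a formin that binds nesprin-2, had an interaction of -1.07 (adjusted p = 1.17e-05). Syne3, which encodes nesprin-3, went the other way from Syne1 and Syne2, at 7.83 ± 0.06 log2 in the arrays with the activated B label and 6.49 ± 0.12 in those with the resting B label (log2 fold change 1.33, adjusted p = 8.45e-09 from limma). In the labelled T cells its log2 fold change was -0.09 (adjusted p = 0.562), and its interaction was 1.42 (adjusted p = 1.55e-07). With the labelled T comparison turned, 2 of the 11 genes differed positively and 1 negatively, beside 8.02% and 6.65% of all genes.

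Of 5 enzymes that process prelamins, Zmpste24, the protease that cuts prelamin A, had an interaction of 0.91 (adjusted p = 0.000143 from limma) and Fntb, a farnesyltransferase subunit, one of 0.81 (adjusted p = 0.000725), while Fnta, Rce1 and Icmt were not called. Both sterol reductase genes related to Lbr were higher in the arrays with the activated B label than in those with the resting B label and lower in those with the activated T label than in those with the resting T label. Dhcr7 was at 8.19 ± 0.06 log2 (SD, n = 3) in the arrays with the activated B label and 7.23 ± 0.01 in those with the resting B label, and at 6.98 ± 0.08 in those with the activated T label and 8.46 ± 0.17 in those with the resting T label (interaction 2.44, adjusted p = 2e-10 from limma). For Tm7sf2 the interaction was 1.71 (adjusted p = 6.32e-08). With the labelled T comparison turned, 1 of these 2 sterol reductase genes was called, with a negative difference. Of the 5 enzymes above, 1 was then called positive and 1 negative (beside 8.02% and 6.65% of all genes).

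Of 9 measured mitotic kinases, cyclins and phosphatase subunits that act on the lamina, 6 were higher and 2 lower in the arrays with the activated B label than in those with the resting B label (beside 19.7% and 16.7% of all genes), and 2 were higher and 7 lower in those with the activated T label than in those with the resting T label (beside 15.9% and 17.8%). The interaction was positive for 7 and negative for 2 (beside 21.9% and 20.9%). With the labelled T comparison turned, 1 of the 9 was called, with a negative difference (beside 8.02% positive and 6.65% negative of all genes). Cdk1, which phosphorylates lamins at mitosis, was at 9.81 ± 0.03 log2 (SD, n = 3) in the arrays with the activated B label and 5.96 ± 0.34 in those with the resting B label, and at 5.85 ± 0.39 in those with the activated T label and 9.11 ± 0.16 in those with the resting T label. Its interaction of 7.10 (adjusted p = 5.79e-13 from limma) stood beside 7.04 for the mitotic kinase Plk1 and 6.72 for the cyclin Ccnb2. The protein kinase C genes Prkcb (-3.18, adjusted p = 1.49e-09) and Prkcd (-0.94, adjusted p = 1.12e-05) were the 2 with a negative interaction, whereas Prkca had one of 1.70 (adjusted p = 4.28e-07, named after their values were seen).

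Nuclear pore genes had counts mostly in 1 direction. Of 26 measured, 23 were higher and 1 lower in the arrays with the activated B label than in those with the resting B label (beside 19.7% and 16.7% of all genes), and 1 was higher and 18 were lower in those with the activated T label than in those with the resting T label (beside 15.9% and 17.8%). The interaction (21.9% of all genes positive, 20.9% negative) was positive for 22 and negative for 1, Nup153 (-0.43, adjusted p = 0.00962 from limma, named after its values were seen), with a median of 1.27 beside -0.03 over all genes. With the labelled T comparison turned, 7 of the 26 were called, all positive, beside 8.02% of all genes positive and 6.65% negative. The median of the 26 was then 0.24, beside 0.01 over all genes. Nup62, a central channel protein, was at 9.59 ± 0.06 log2 (SD, n = 3) in the arrays with the activated B label and 7.95 ± 0.07 in those with the resting B label, and at 8.09 ± 0.07 in those with the activated T label and 9.90 ± 0.03 in those with the resting T label (interaction 3.45, adjusted p = 5.57e-13 from limma). The pore genes Aaas (2.98) and Nup43 (2.96) followed. The dividing-cell markers given above move with the B-type lamins, Tmpo, the mitotic genes and the pore genes, and their part in these results was not tested.

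**Figure D4:**
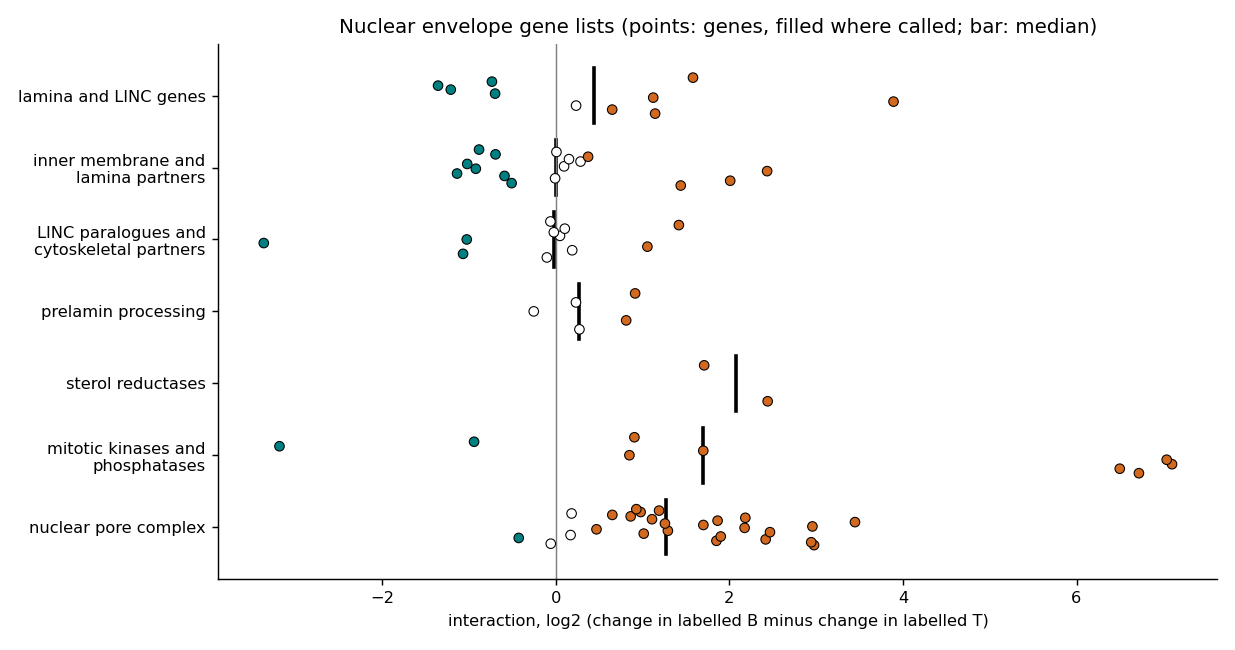
Interaction (log2, x axis, the labelled B change minus the labelled T change) of the genes of 7 lists of the nuclear envelope (y axis), with a point for each gene, filled where the adjusted p from limma is under 0.05, and the median of a list as a bar. The mitotic genes Cdk1 and Plk1 lie at 7.10 and 7.04 and the median of the pore genes at 1.27, while the lamina and LINC genes lie on both sides of 0. The interaction follows the labels, and with the T comparison turned the median of the pore genes is 0.24.

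The patterns of single genes over the 12 arrays were compared with those of 12857 other genes with a group mean above background, by Pearson's r as a description, since the arrays form 4 groups of 3. The genes most like Lmnb1 were Cnot9, Smc2, a condensin subunit, and Top2a, the topoisomerase of mitotic chromosomes (r = 0.998 each). Tmpo was most like Dctpp1 (r = 0.996), Acsl5 (0.994) and Gatm (0.993), and Lmnb2 most like Dtymk (r = 0.986), the thymidylate kinase of DNA synthesis, Mrpl16 and Bcap29 (0.984 each). Emd was most like Ube2e3 (r = 0.991), Tbcd (0.982) and Poldip2 (0.976), and Lbr most like Abcb9 (r = 0.984), Spint2 (0.984) and Flot1 (0.982). Sun2 was most like Rnf166 (r = 0.990), Dtnb (0.988) and Igflr1 (0.987), and Syne1 most like Madd (r = 0.990), Sbf1 (0.987) and Rapgef6 (0.985). For Lmna (Ckb, Gm8675 and Tyro3), Sun1 (Slc4a2, Fam160a2 and Trp53bp2) and Syne2 (Araf, Ppp6r2 and Arnt) the highest r was 0.935, 0.940 and 0.938. Among the 10 genes, r was highest between Lmnb1 and Tmpo (0.98), and it was 0.963 between Sun2 and Syne1 and -0.80 between Tmpo and Syne2.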

How the data were processed

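Gene expression was analysed on the 12 arrays of 4 labelled groups. The deposited values are log2 levels of probe sets. According to the submitters' processing notes the authors made them with RMA, whose version is not given in the sources used here. RMA brings the arrays to 1 distribution, so that a shift of most genes cannot be seen, and it compresses low levels. Array medians lay between 5.50 and 5.68 log2. Arrays hold no read depth, and their number limits the precision.

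Of 34760 probe sets, 21640 had 1 symbol, 1321 several and 11799 no gene named here. The probe set with the highest mean over the arrays stood for a gene, which gave 19937 genes. Identifiers of 21553 probe sets were found in the RefSeq table used to update symbols (GRCm38.p6), and 0 symbols changed. Groups were compared with limma 3.58.1 in R 4.3.3 (eBayes after lmFit, 1 mean per group, all 12 arrays, 8 residual and 7.8 prior degrees of freedom), with p-values adjusted by Benjamini and Hochberg's method over the whole table of genes and called under 0.05. The steps were tested on simulated data. Figures were drawn with Python 3.11.15 and matplotlib 3.10.9.

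The 10 genes and the lists were chosen with earlier results of these data known. The text names all 10 genes, the 3 genes of each list with the largest called interactions (fewer where fewer were called), and the 3 genes most like each of the 10. Genes said to be named after their values were seen were added to these. Ccnb1, Nup35, Nup58 and Tpr were listed but had no probe set with 1 symbol. Replicate numbers were shared within the labelled B and T cells. Over 12170 genes, the correlation of the deviations of same-numbered arrays was -0.06, 0.06 and 0.25 for the B labels. For the T labels it was 0.22, 0.16 and 0.23. With the B labels, activated 1 with resting 2 gave 0.15 and activated 2 with resting 1 gave 0.13. Same numbers thus had the highest correlations for the T labels, and for the B labels only number 3 did. The replicate block, by number, was an alternative, and a block with these crossed pairs was not fitted. Other alternatives were centring, quantile normalization, filters on dim genes, the choice of probe set, the arrays in the fit, the variance model, array weights and leaving out each array. Centring over the genes, in place of all probe sets, and the sign of the labelled T comparison turned were added after seeing the data.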

Additional observations from a re-analysis of the deposited data

Results flagged for a closer look

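Taken by the labels, the activation comparison differed between the labelled B and T cells for 9 of the 10 genes, by the interaction test of limma at an adjusted p under 0.05. This rests on the direction of the labelled T comparison, against which the dividing-cell markers run. With that comparison turned, 0 of the 10 genes were called (2 at an unadjusted p under 0.05 from limma), beside 14.7% of all genes. Lmnb1 then differed by 0.13 (adjusted p = 0.7 from limma). By the labels the interaction was 3.89 log2 for Lmnb1, 1.58 for Tmpo, 1.14 for Emd, 1.12 for Lmnb2 and 0.65 for Lbr. It was -1.36 for Syne1, -1.21 for Sun2, -0.74 for Syne2 and -0.70 for Sun1. In the other settings the calls of these 9 genes were the same for the probe set that stood for each gene. With every probe set tested on its own, 11 of the 14 probe sets of the 10 genes were called, and besides that of Lmna the second probe set of Syne1 (-0.09, adjusted p = 0.733) and 1 of the 4 of Syne2 (-0.49, adjusted p = 0.0555) were not. Over all genes, 42.7% were called for the interaction, and the lineage markers run against the labels of all 4 groups.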

How the results depend on the processing

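The setting that changed the interaction most was the sign of the labelled T comparison, whose direction the dividing-cell markers put in doubt. With it turned, 0 of the 10 genes and 2924 of all genes were called, against 9 and 8518 by the labels, and the differences of Lmna (-0.0578) and Sun1 (0.2656) had the other sign. All that follows keeps the labels. Of 50 called differences of the 10 genes over the 7 comparisons, each read by the probe set that stood for the gene, 41 were called in every other setting run, 9 lost the call in at least 1, and 0 changed direction. The number of the 10 genes called stayed within 1.5 times the reported number in every comparison and setting, and so did the number of all genes. With arrays left out in turn it was 7 to 8 for the B labels, 7 to 8 for the T labels and 9 for the interaction, and in the other settings 7 to 10, 7 to 9 and 9 to 11 (with 14 probe sets of these genes counted where each was tested on its own). With the replicate block 8, 7 and 9 genes were called, and apart from Lbr and Syne2 for the T labels the block changed no call of the 10 genes. This block goes by the replicate numbers, which did not give the highest correlations for B replicates 1 and 2. No block could be fitted between the labelled cell types, which share no replicate number.

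Centring over the genes on the 75th percentile also ended the calls of Lbr for the T labels (adjusted p = 0.167 from limma) and of Lmna between the activated T and resting B labels (0.0652), and both centrings over the genes that of Sun1 between the activated B and resting T labels (0.0646 and 0.0641). Quantile normalization added Lbr between the resting labels (0.0332), Lmna between the activated B and resting T labels (0.0283), and Sun1 (0.0264) and Syne1 (0.0363) between the activated labels, which the 75th percentile over the genes also added (0.0283 and 0.0177). Median centring over the genes ended the call of Syne2 for the T labels (0.077).

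Differences that were not called changed sign in 10 fits, and the cause was not tested. Lmna between the activated and resting B labels was -0.0129 with each array centred on the 75th percentile over the genes. Sun2 between the activated B and activated T labels was 0.10 with median centring and -0.0827 to 0.0496 with arrays left out in turn. Syne2 between the resting labels was -0.0157 to 0.2421. Between the activated T and resting B labels, Lmnb2 was -0.0636 to 0.0817, Emd -0.1525 to 0.0344 and Sun1 -0.1131 to 0.0534. Emd between the activated B and resting T labels was -0.005 to 0.1244. Median centring over all probe sets moved the median interaction of all genes to 0.18 and the share of positive calls to 67.6%, against 51.2% without it, and centring on the 75th percentile over the genes moved them to -0.21 and 38.1%. The same centrings moved the share of higher calls to 66.6% and 41.9% for the B labels (54.1% without), 33.9% and 56.7% for the T labels (47.3% without), and 68.5% and 39.2% between the activated labels (53.5% without).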
